A study of Homo sapiens with 4 samples.

Results

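The constitutive proteasome is represented here by 40 listed genes, the subunits of the core particle and of the regulatory particle that caps it, with assembly factors and activators. A probe set was taken for a gene when the platform annotation gave that gene as its only symbol, and the brightest such probe set, by its mean over the 4 arrays, stood for the gene. By this rule 35 of the 40 genes had a value, out of 19775 genes with a value in the whole series. PSMA6, a subunit of the alpha ring, and PSME2, a subunit of an activator, lie only on probe sets that carry several symbols and were given no value. The signals of PSMC5, PSMD7 and PSMD13 were not analysed here, and these genes enter only the promoter counts. All 35 measured genes stood above the signal floor, a signal of 77.5, on each of the 4 arrays. The list is not constitutive in every entry, since PSMB10 is a catalytic subunit of the immunoproteasome and PSME1 and PSME2 form an activator that interferon induces.

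The arrays measured RNA of human B-cell lymphoma lines, and the study asked which expression changes go with resistance to rituximab, an antibody against the B-cell surface protein CD20. The parental lines were Jeko-1, from a mantle cell lymphoma, and Raji, from a Burkitt lymphoma, and each gave rise to a rituximab-resistant subline, named Jeko-1/R and Raji/R. The parental cells had not been treated with rituximab and the resistant cells had, so exposure and resistance cannot be told apart, and dose, duration and the number of clones are not given in the sources used here. Each of the 4 groups had 1 array, so array and group cannot be told apart either, there is no p-value for a single line, and the number of arrays limits the precision. Nothing in the labels describes separate cultures, so p-values from the fit over all 4 arrays measure only the spread between these arrays, which may be technical. In total RNA from a culture, a change in the cells present and a change in RNA per cell cannot be told apart.

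The labelled cell types were checked against their markers. All 6 B-cell markers with a value stood at or above the floor on every array. Of the mantle cell lymphoma markers, CCND1 read 15834 in Jeko-1 cells and 14973 in their resistant subline, SOX11 read 9180 and 8159, and both genes were below the floor on the Raji arrays. CD5, the other marker of that list, was below the floor on both Jeko-1 arrays (21.0 and 51.5) and read 47.4 in Raji and 121 in Raji/R. Of the 4 germinal-centre or Burkitt markers, BCL6 read 392 and 432 in Jeko-1 and Jeko-1/R and 14398 and 14566 in Raji and Raji/R. CD38 read 207, 146, 1856 and 1833 in that order, and MYBL1 250, 286, 599 and 424. MME did not separate the lines, with 201, 187, 223 and 113. The summed signal of 5 T-cell markers lay between 167 and 478 on the 4 arrays. Other lists stood higher on the Raji arrays: 5 NK-cell markers summed to 298 and 323 in Jeko-1 and Jeko-1/R and to 1288 and 2207 in Raji and Raji/R, and 6 myeloid markers to 187, 159, 575 and 941 in that order. NKG7 made up most of the NK-cell sum in the Raji cells, with 883 and 1749, while GNLY was below the floor on every array, as were CD14 and LYZ of the myeloid list. The 6 epithelial or stromal markers summed to 6989 to 10333, most of it VIM, which lymphoid cells also express, and COL1A1 read 1916 and 1465 in Raji and Raji/R against 97.7 and 37.7 in the Jeko-1 cells. The 2 erythroid markers with a value summed to 69.4 to 598. The part of these genes in the results was not tested. The Raji/R array stood apart from the rest, with 55.6% of its probe sets at or above the floor against 48.0% to 48.3% on the others. The only spread that can stand for error is that between probe sets of a gene: their log2 ratios of resistant over parental signal had an SD of 0.25 over 5310 genes for Jeko-1 cells and of 0.49 over 4949 genes for Raji cells. For genes of the proteasome list alone this SD was 0.18 (20 genes) and 0.25 (17 genes). This spread lies between probe sets and not between cultures.

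The proteasome degrades proteins that carry ubiquitin chains. Its core particle is a stack of rings of alpha and beta subunits in which PSMB5, PSMB6 and PSMB7 hold the chymotrypsin-like, caspase-like and trypsin-like active sites. The regulatory particle has a base with a ring of ATPases that unfold the substrate and thread it into the core, and a lid in which PSMD14 cuts off the ubiquitin chain. B cells also build immunoproteasomes, in which PSMB8, PSMB9 and PSMB10 take the place of PSMB5, PSMB6 and PSMB7 and shift the peptides made for antigen presentation. PSMB5 is the main target of bortezomib, a drug used in mantle cell lymphoma. When proteasome activity falls short, the transcription factor NFE2L1 raises many of the subunit genes together through antioxidant response elements in their promoters.

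Promoter sequences are shown for 4 members that differed between the Jeko-1 and Raji lines in the fit described below, 3 of them lower and 1 higher in the Jeko-1 lines. They are PSMB5, the chymotrypsin-like subunit (GRCh38.p14, chr14:23035221-23035470, minus strand), PSMB3, a structural beta subunit (chr17:38752491-38752740, plus strand), PSME1, a subunit of the interferon-induced activator (chr14:24135944-24136193, plus strand), and PSMC2, an ATPase (chr7:103347393-103347642, plus strand). Each is the 250 bases before the RefSeq transcription start, 5′ to 3′ in the direction of transcription. Capitals mark matches on either strand to the antioxidant response element TGACNNNGC, the CCAAT box CCAAT and the ETS-type box CCGGAAG.
PSMB5: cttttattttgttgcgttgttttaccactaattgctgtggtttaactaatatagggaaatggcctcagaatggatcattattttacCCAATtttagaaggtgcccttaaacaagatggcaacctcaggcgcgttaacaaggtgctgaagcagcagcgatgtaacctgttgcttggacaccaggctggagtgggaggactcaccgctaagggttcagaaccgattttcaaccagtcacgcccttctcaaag
PSMB3: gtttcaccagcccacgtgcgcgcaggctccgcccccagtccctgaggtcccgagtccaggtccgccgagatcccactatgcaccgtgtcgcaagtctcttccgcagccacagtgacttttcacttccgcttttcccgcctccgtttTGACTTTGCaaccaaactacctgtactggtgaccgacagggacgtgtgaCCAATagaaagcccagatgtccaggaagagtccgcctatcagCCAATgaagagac
PSME1: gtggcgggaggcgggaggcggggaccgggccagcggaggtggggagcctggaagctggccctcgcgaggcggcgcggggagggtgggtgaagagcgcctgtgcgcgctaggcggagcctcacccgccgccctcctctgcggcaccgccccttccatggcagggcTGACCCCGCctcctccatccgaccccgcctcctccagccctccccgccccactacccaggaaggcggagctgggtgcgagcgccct
PSMC2: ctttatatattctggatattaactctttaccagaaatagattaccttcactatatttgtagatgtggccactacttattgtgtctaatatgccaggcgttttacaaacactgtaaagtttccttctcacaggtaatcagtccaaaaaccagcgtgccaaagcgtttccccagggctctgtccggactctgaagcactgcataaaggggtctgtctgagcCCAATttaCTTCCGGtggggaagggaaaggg
PSMB5 held 1 match, a CCAAT box 164 to 160 bases before the start. PSMB3 held 3 matches, an antioxidant response element 104 to 96 bases before the start and CCAAT boxes 55 to 51 and 13 to 9 bases before it. In PSME1 the only match was an antioxidant response element 86 to 78 bases before the start. PSMC2 held a CCAAT box 31 to 27 bases before the start and, on the opposite strand, an ETS-type box 23 to 17 bases before it.

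The RefSeq table held promoters for 35 of the 40 listed genes, 41 entries in all, since 5 genes have several starts. These are not the same 35 genes as those with a signal value, since PSMC5, PSMD7, PSMD13 and PSME2 are among them. The antioxidant response element letters occurred in 10 of these 41 windows (24.4%) and in 10.9% of all 35116 promoter windows of the same length. CCAAT occurred in 16 of 41 (39.0%) against 32.0% of all windows, and CCGGAAG in 9 of 41 (21.95%) against 8.52%. The letters of one motif may overlap those of another. These are letter matches and were not tested, and a match is not a binding site.

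Between Jeko-1/R and Jeko-1 the proteasome genes differed by little. A gene counted as changed within a line when its signals differed by at least 2-fold, and 0 of the 35 genes reached that size, where 0.975% of all 11588 genes above the floor in this pair did (0.38% higher and 0.595% lower). All measured members had a mean signal of at least 1000, and with the floor raised to the 75th percentile the share over all genes was 0.331%. The log2 ratios ran from -0.26 for PSMD14, the deubiquitinase of the lid, to 0.30 for PSMC4, an ATPase. Their median was -0.06, with 14 genes above 0 and 21 below, beside a median of 0.00 over all genes. PSMD14 and PSMC4 were the 2 genes whose ratio exceeded the SD of 0.25 between probe sets. By group, the median was -0.05 for the alpha ring, -0.11 for the beta ring, -0.09 for the ATPases, 0.02 for the other base subunits, -0.03 for the lid, -0.05 for the chaperones of the base and 0.04 for the activators.

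Between Raji/R and Raji, again 0 of 35 genes reached 2-fold, where 9.64% of all 14642 genes did (7.01% higher and 2.64% lower). That share was 1.78% with the floor raised to the 75th percentile and 4.81% with the mean over probe sets, and with median centring 2 members passed 2-fold, PSMC6 at -1.02 and PSMD5 at -1.16. The proteasome genes spread more widely here than in the Jeko-1 pair, from -0.75 for PSMD5, an assembly chaperone of the base, to 0.57 for PSMA1, a subunit of the alpha ring. The median was -0.01 with 16 genes above 0 and 19 below, and over all genes it was 0.08. In 4 genes the ratio exceeded the SD of 0.49 between probe sets: PSMD5, PSMC6 and PSMD11 below 0 and PSMA1 above. Of the 7 beta subunits 6 were above 0, with a group median of 0.29, while 0 of the 5 ATPases and 1 of the 6 lid subunits were above 0, with medians of -0.06 and -0.25. The core subunits together (13 genes) had a median of 0.18 and the regulatory particle (14 genes) -0.10, with 11 of its genes below 0.

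These signs depend on how the Raji arrays are scaled. When each array was centred on its median the median of all genes moved from 0.08 to -0.31 and that of the beta ring from 0.29 to -0.12, so the beta ring changed sign. Relative to all genes it stayed above, by 0.21 as deposited, 0.19 after median centring, 0.14 after quantile normalization and 0.11 after a lowess adjustment of the ratio on signal. The lid stayed below 0 in each of these scalings, at -0.66 after median centring, -0.18 after quantile normalization and -0.19 after the lowess adjustment. The ATPase median went to 0.00 with quantile normalization, with 3 of 5 genes above 0. Among the smaller groups, the alpha ring (-0.11) and the chaperones of the base (-0.36) kept their sign in every scaling, while the other base subunits (0.11) and the activators (0.03) lay below 0 with median centring, to -0.30 and -0.38. No test of these differences between groups was possible with 1 array per group.

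**Figure D1:**
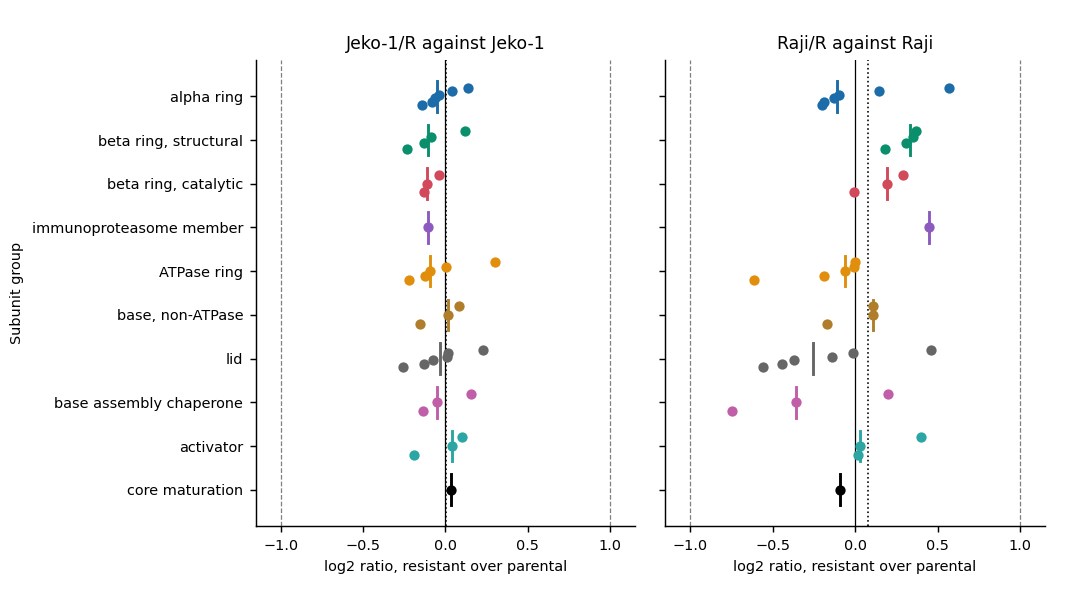
Log2 ratio of resistant over parental signal for each measured gene (points), by subunit group, in the Jeko-1 pair (left) and the Raji pair (right), with 1 array per group and no error bars. Coloured bars are group medians, dotted lines the median of all genes and dashed lines 2-fold; no gene reaches 2-fold, and the beta ring median in the Raji pair is 0.29, or -0.12 when arrays are centred on their medians.

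The ratios moved with the brightness of the probe set in both pairs. Among all genes with a mean signal of at least 10000, the median log2 ratio was -0.08 in the Jeko-1 pair (578 genes, 26.5% above 0) and 0.13 in the Raji pair (580 genes, 64.8% above 0). The 12 proteasome genes in this range had medians of -0.06 and 0.23, and 6 of the 7 beta subunits are among them. Between 4000 and 10000 all genes had medians of -0.03 and -0.10, and the 12 proteasome genes there -0.09 and -0.01. Between 1000 and 4000 the medians of all genes were 0.01 and -0.09, and those of the other 11 proteasome genes 0.04 and -0.13. Across the 35 genes, which share the same arrays, the ratio correlated with log2 mean signal at r = -0.47 for Jeko-1 cells and at 0.38 for Raji cells.

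**Figure D2:**
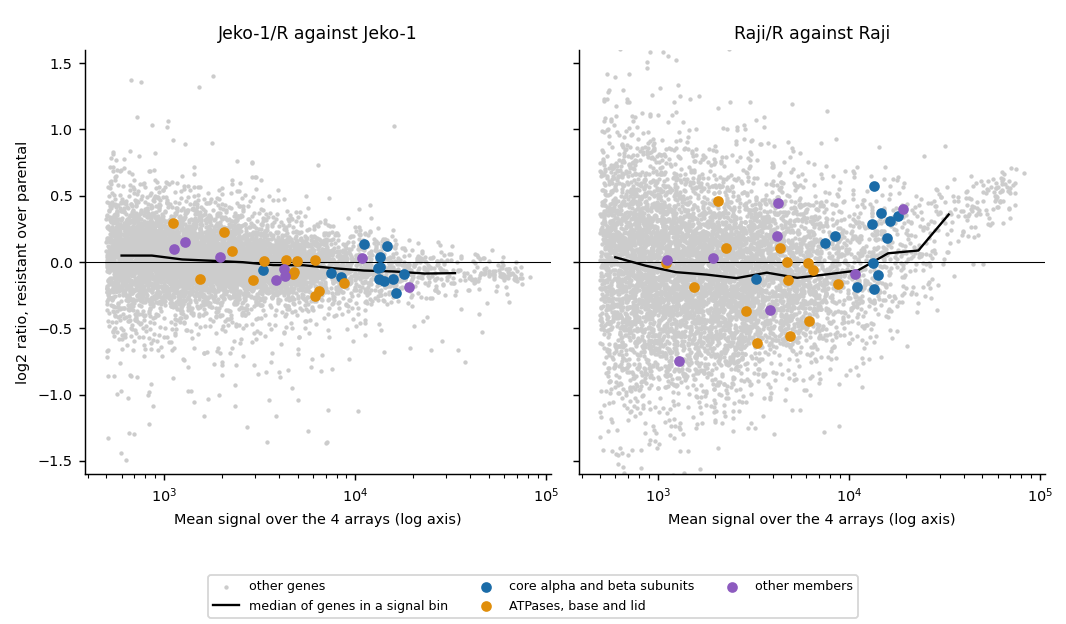
Log2 ratio of resistant over parental signal against mean signal over the 4 arrays (log axis) for genes with a mean signal of at least 500, with the proteasome genes in colour and the running median of all genes as a black line; 3 genes of the Jeko-1 pair and 22 of the Raji pair lie beyond the axis limits of 1.6. In the Raji pair the running median rises at high signal, where most core subunits lie, and in the Jeko-1 pair it falls slightly.

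The ratios of the same gene in the 2 lines had little in common. Of the 35 genes, 12 were below 0 in both lines and 7 above 0 in both, while 9 were below 0 in Jeko-1/R and above 0 in Raji/R and 7 the other way round. Across genes, which are not independent replicates, Pearson's r between the lines was 0.02 and Spearman's rho 0.08. No gene exceeded in both lines the SD between probe sets over all genes (0.25 and 0.49). Against the smaller SD of the list's own probe sets (0.18 and 0.25), PSMD14 was beyond it below 0 in both lines and PSMD3 above 0 in both, while PSMB2 and PSME1 were beyond it below 0 in Jeko-1/R and above 0 in Raji/R. With limma fitted to all 4 arrays with cell line and resistance as terms, 0 of 35 proteasome genes and 0% of 15575 genes passed an adjusted p of 0.05 for resistance. At an unadjusted p under 0.05 there were 324 genes, 0 of them in the list, and the lowest adjusted p was 0.974. The median difference of the list was 0.00, beside 0.04 for all genes, and the extremes were PSMD14 at -0.35 (SE 0.25) and PSMD3 at 0.34 (SE 0.25). The smallest two-sided p that an exact test over the 2 pairs allows is 0.5.

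The 2 cell lines differed in many of the proteasome genes. In the same fit (limma, Benjamini-Hochberg adjustment over 15575 genes, 2 arrays per line), 5 proteasome genes were higher in the Jeko-1 lines and 14 were lower, together 19 of 35 (54.3%). That share is close to the 53.4% of all genes that passed (23.3% higher and 30.1% lower). The catalytic beta subunits PSMB5 and PSMB6, the structural beta subunits PSMB2 and PSMB3, the activator PSME1 and the lid subunit PSMD8 were higher in the Raji lines by at least 1.51 on the log2 scale, and the ATPase PSMC6 was higher in the Jeko-1 lines by 2.15. With no floor 0 of these 19 genes passed, and neither did any other of the 19775 genes fitted. In 15 of 35 genes the difference was at least 2-fold, as in 44% of all genes. The list's median difference, Jeko-1 lines minus Raji lines, was -0.44 beside -0.29 for all genes. With the lowess adjustment the list's median turned to 0.12, beside -0.06 for all genes. In the brightest range, a mean signal of at least 10000, all 580 genes had a median of -1.21 and the 12 proteasome genes -0.77. The parental arrays alone and the resistant arrays alone gave the same sign for 33 of 35 genes in this contrast. The first of these leaves out the Raji/R array. The share over all genes was not taken, so this count is not a result particular to the proteasome genes.

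**Figure D3:**
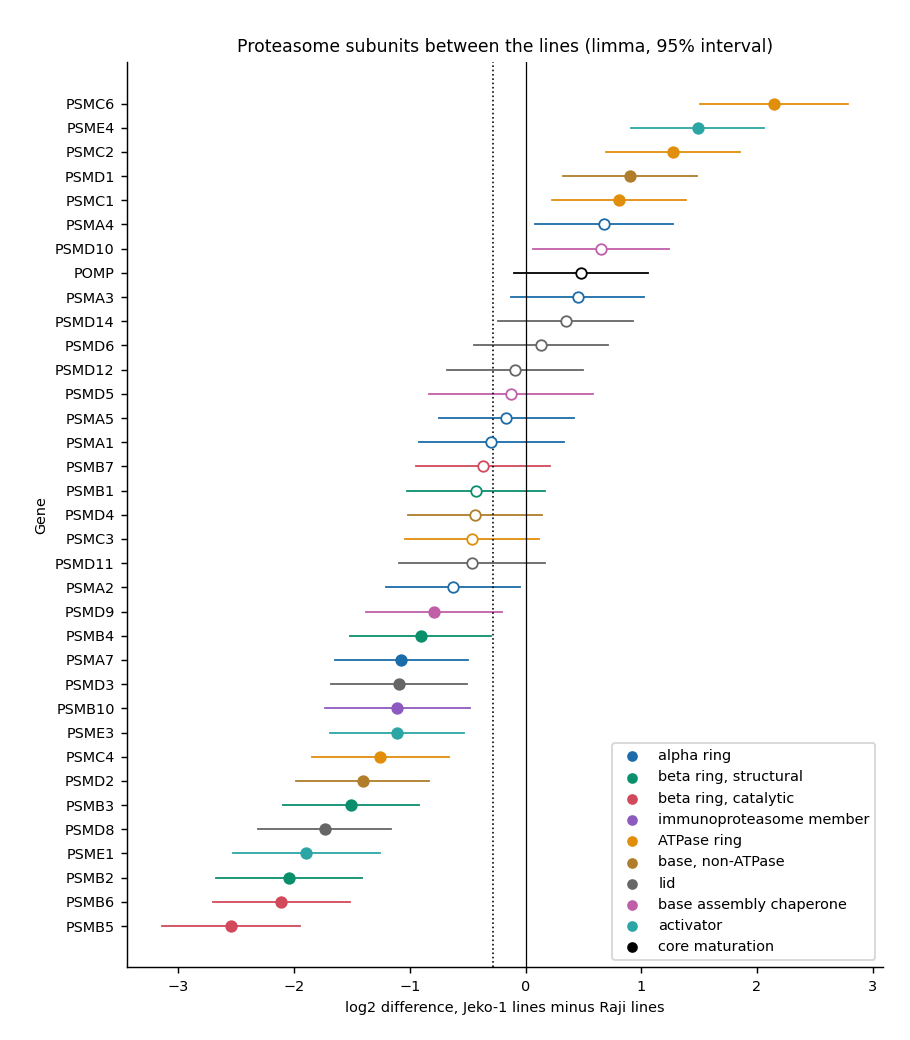
Log2 difference between the Jeko-1 lines and the Raji lines for each gene, with the 95% interval from limma (2 arrays per line); filled points passed an adjusted p of 0.05, colours are subunit groups and the dotted line is the median of all genes. All 7 beta subunits lie below 0 with the values as deposited, 2 of them lie above 0 with quantile normalization and 3 with a lowess adjustment, and PSMC6, PSME4, PSMC2, PSMD1 and PSMC1 are the 5 called genes above 0.

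The alpha ring gates the entry to the core. PSMA1 read 11807 and 12150 on the parental and resistant Jeko-1 arrays and 12067 and 17922 on those of Raji, log2 ratios of 0.04 and 0.57. On this probe set the Raji/R array stood alone and the other 3 were level. The brightest PSMA1 probe set is of a type that can bind other transcripts as well, as are those of PSMA7 and PSME3. The other PSMA1 probe sets, which also carry shared-sequence suffixes, gave 0.39 and 0.17 in the Raji pair. In the same order of arrays they read 10907, 11991, 8376 and 10982, and 6911, 6709, 5308 and 5992. On both of them the Raji array was lowest and the Raji/R array did not stand alone. PSMA4 had signals of 12982, 14255, 9091 and 7970 in that order of arrays, which is kept below, with ratios of 0.13 and -0.19. PSMA2 had 10793, 10508, 17649 and 15354, with ratios of -0.04 and -0.20, the lowest of the ring in the Raji pair. With the values as deposited, only PSMA7 passed the test between lines among the 6 alpha subunits. It read 9605 and 8720 in Jeko-1 and Jeko-1/R and 19899 and 18639 in Raji and Raji/R. Its difference by limma was -1.07 (SE 0.24, adjusted p = 0.00846). With quantile normalization (-0.46) or the lowess adjustment (-0.25) this call was lost. PSMA4 did not pass as deposited (0.68, adjusted p = 0.0574 by limma). It passed with quantile normalization, median centring and the lowess adjustment, among other alternatives. PSMA2, PSMA3 and PSMA5 passed in fewer alternatives. PSMA3 and PSMA5 had ratios between -0.13 and 0.15 in both lines.

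Among the catalytic beta subunits, PSMB5 and PSMB6 differed widely between the lines and PSMB7 did not pass. PSMB5 read 3906 in parental and 3797 in resistant Jeko-1 cells, against 20385 and 24903 in the Raji cells. The 2 Jeko-1 arrays were level and both far below the Raji arrays. The ratios within lines were -0.04 and 0.29, and the difference between lines was -2.55 (SE 0.25, adjusted p = 0.000224), 5.85-fold higher in the Raji lines. With the lowess adjustment it was -1.88. PSMB6 read 3283 and 3039 in the Jeko-1 cells and 12759 and 14606 in the Raji cells, a difference of -2.11 (SE 0.25, adjusted p = 0.000471) with ratios of -0.11 and 0.20 within the lines. PSMB7 did not share this gap, with 12200, 11145, 15089 and 15001, ratios of -0.13 and -0.01, and a difference of -0.37 (SE 0.24, adjusted p = 0.247). Its 95% interval runs from -0.95 to 0.21 and does not reach the gap seen for PSMB5. A dimmer PSMB7 probe set had the opposite sign between the lines, 2.17. It read 359, 386, 88.2 and 21.5, the last below the floor. PSMB7 passed between the lines with the mean over probe sets. PSMB10, which takes the place of PSMB7 in the immunoproteasome, read 2787, 2590, 4965 and 6761, with ratios of -0.11 and 0.45. It was higher in the Raji lines, with a difference of -1.11 (SE 0.26, adjusted p = 0.0106).

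**Figure D4:**
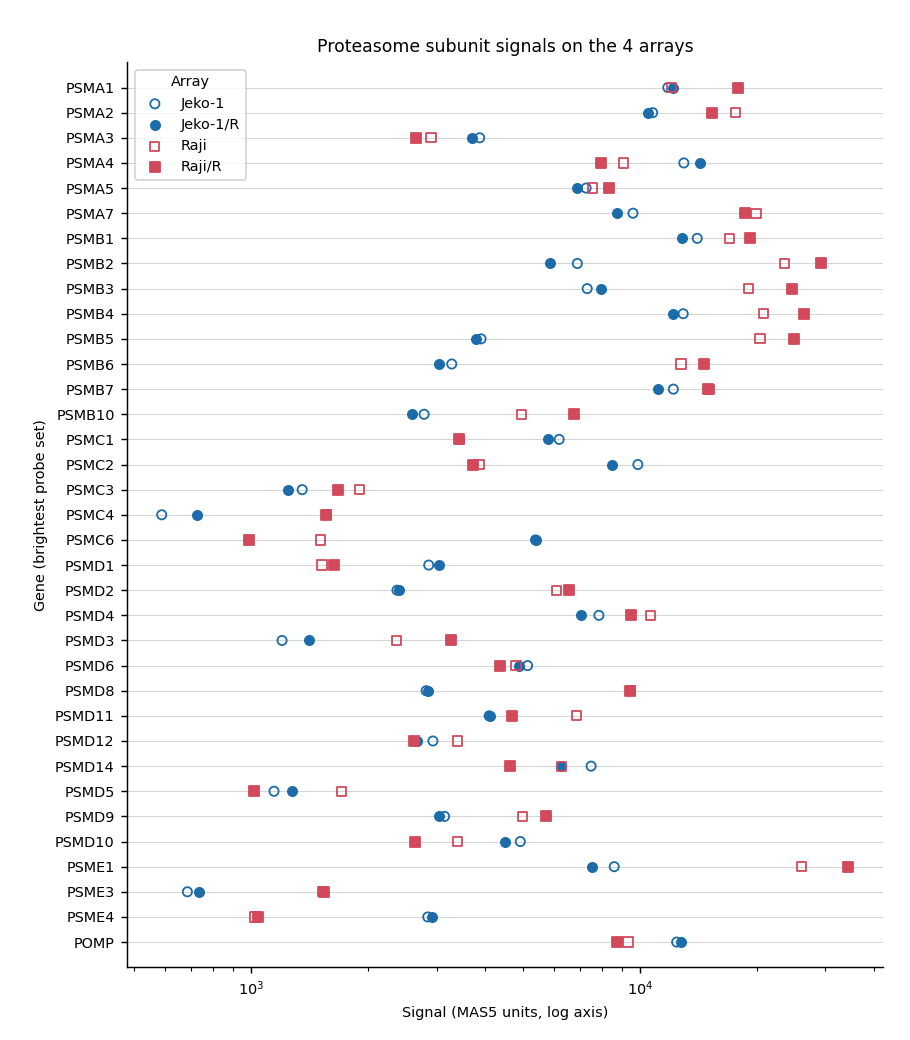
Signal of the brightest probe set of each measured gene on the 4 arrays (log axis), circles for Jeko-1 cells and squares for Raji cells, open for parental and filled for resistant cells. Signals are to be compared within a row, since probe sets bind with different strength; PSMB5 reads 3906 and 3797 on the Jeko-1 arrays and 20385 and 24903 on the Raji arrays, while PSMB7 lies between 11145 and 15089 on all 4.

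The structural beta subunits complete the ring and hold no active site. PSMB2 read 6909 and 5870 in Jeko-1 and Jeko-1/R and 23585 and 29269 in Raji and Raji/R. Its ratios were -0.24 and 0.31, and the difference between lines was -2.04 (SE 0.26, adjusted p = 0.000698). That difference was -1.46 with quantile normalization, -1.23 with the lowess adjustment and -1.45 with the mean over probe sets. PSMB3 read 7323, 7959, 19076 and 24673, ratios of 0.12 and 0.37, and a difference of -1.51 (SE 0.25, adjusted p = 0.00204), which became -0.91 with quantile normalization and -0.69 with the lowess adjustment. PSMB3 was the only beta subunit above 0 in both pairs. PSMB4 had ratios of -0.09 and 0.35 and a difference of -0.91 (SE 0.26, adjusted p = 0.0216), which the lowess adjustment took to 0.03. The call was lost with that adjustment, with quantile normalization (-0.14) and with median centring (-0.64). PSMB1 read 14054, 12839, 17002 and 19256, ratios of -0.13 and 0.18, and its difference of -0.43 did not pass (adjusted p = 0.193). Over the 7 beta subunits the median difference between lines was -1.51, and 5 were called lower in the Jeko-1 lines, as were 30.1% of all genes. Most of the ring had a mean signal of at least 10000, where all 580 genes had a median of -1.21. The ring's median was -0.91 after quantile normalization, -1.24 after median centring and -0.69 after the lowess adjustment. POMP, the factor that matures new core particles, did not follow the beta ring, with 12443, 12730, 9325 and 8755 and a difference of 0.48 (SE 0.24, adjusted p = 0.144). Its ratios were 0.03 and -0.09, but its dimmer probe set read 1155, 1291, 459 and 227, a ratio of -1.01 in the Raji pair. Between the lines that probe set gave a difference of 1.92. POMP passed between the lines with quantile normalization, the lowess adjustment and probe sets without shared-sequence suffixes, among other alternatives.

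The ATPase ring split between the lines. PSMC6 read 5392 and 5415 in the Jeko-1 cells and 1506 and 987 in Raji and Raji/R, so the parental and resistant Jeko-1 arrays were level and the Raji/R array was lowest. Its ratios were 0.01 and -0.61, and the difference between lines was 2.15 (SE 0.27, adjusted p = 0.000615), 4.43-fold higher in the Jeko-1 lines. PSMC2 read 9887, 8494, 3878 and 3713, ratios of -0.22 and -0.06, and a difference of 1.27 (SE 0.25, adjusted p = 0.00413). PSMC1 read 6203, 5817, 3438 and 3432, ratios of -0.09 and -0.00, and a difference of 0.81 (SE 0.24, adjusted p = 0.0275). PSMC4 went the other way, with 589, 724, 1566 and 1556, ratios of 0.30 and -0.01, and a difference of -1.26 (SE 0.25, adjusted p = 0.00478). PSMC3 was lower in both resistant lines by less than the SD between probe sets, with ratios of -0.12 and -0.19, and did not pass between lines (-0.46, adjusted p = 0.155). The 5 measured ATPases had a median difference of 0.81, and of 0.96, 1.08 and 1.17 after quantile normalization, median centring and the lowess adjustment.

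The other subunits of the base bind ubiquitin or its carriers. PSMD2, a scaffold of the base, read 2374 and 2403 in the Jeko-1 cells and 6110 and 6587 in the Raji cells, ratios of 0.02 and 0.11 and a difference of -1.41 (SE 0.24, adjusted p = 0.00255). PSMD1, the companion scaffold, stood higher in the Jeko-1 lines, with 2864, 3038, 1522 and 1639, ratios of 0.09 and 0.11 and a difference of 0.90 (SE 0.24, adjusted p = 0.0177). PSMD4, a ubiquitin receptor, read 7850, 7049, 10667 and 9495. Its ratios were -0.16 and -0.17, alike in both lines and inside the SD between probe sets, and its difference between lines did not pass (-0.44, adjusted p = 0.176).

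In the lid, PSMD14 read 7495 and 6266 in Jeko-1 and Jeko-1/R and 6284 and 4628 in Raji and Raji/R, lower in each resistant line with ratios of -0.26 and -0.44. PSMD3 was the lid gene that was higher in each resistant line, with 1201, 1405, 2368 and 3265, ratios of 0.23 and 0.46, and it was lower in the Jeko-1 lines by a difference of -1.10 (SE 0.25, adjusted p = 0.00825). PSMD11 read 4098, 4125, 6886 and 4678, ratios of 0.01 and -0.56. The Raji array alone was high on this probe set. The dimmer PSMD11 probe set read 648, 730, 511 and 360, with both Raji arrays below the Jeko-1 arrays and ratios of 0.17 and -0.50. PSMD8 read 2821 and 2850 in the Jeko-1 cells and 9480 and 9417 in the Raji cells, level within each line and with a difference of -1.74 (SE 0.24, adjusted p = 0.000993). PSMD6 and PSMD12 had ratios between -0.37 and -0.08 and did not differ between the lines past the threshold (adjusted p = 0.675 and 0.781). The lid's median difference between lines was -0.28.

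The base is put together by chaperones that leave before the particle is finished. PSMD5 read 1146, 1275, 1712 and 1019, ratios of 0.15 and -0.75, the largest in size in the Raji pair, and its only other probe set was below the floor. PSMD10, also called gankyrin, read 4927, 4490, 3392 and 2646, ratios of -0.13 and -0.36. PSMD9 read 3146, 3037, 4993 and 5730, ratios of -0.05 and 0.20, and was the only chaperone of the base that passed between the lines (-0.79, SE 0.25, adjusted p = 0.0315). That call was lost with median centring, the lowess adjustment and log2(signal + 50). PSMD10 did not pass as deposited (0.65, adjusted p = 0.0619 by limma). It passed with quantile normalization, median centring and the lowess adjustment, among other alternatives.

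The activators cap the core in place of the regulatory particle. PSME1 read 8596 and 7527 in Jeko-1 and Jeko-1/R and 26086 and 34408 in Raji and Raji/R. Its ratios were -0.19 and 0.40, and the difference between lines was -1.90 (SE 0.27, adjusted p = 0.00103), 3.72-fold higher in the Raji lines. That difference was -1.19 with quantile normalization and -1.003 with the lowess adjustment. PSME3, the subunit of a nuclear activator, read 686, 734, 1525 and 1545, ratios of 0.10 and 0.02 and a difference of -1.11 (SE 0.24, adjusted p = 0.00724). PSME4, an activator known from spermatogenesis and DNA repair, had the opposite order, with 2848, 2928, 1019 and 1042. It was level within each line, with ratios of 0.04 and 0.03, and its difference was 1.49 (SE 0.24, adjusted p = 0.00199), 2.80-fold higher in the Jeko-1 lines.

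Other probe sets of the same genes gave a check that does not rest on the brightest set. There were 68 probe sets in all, with 21 genes on several and 14 on 1. Of 24 further probe sets above the floor on all 4 arrays (17 genes), 18 had the sign of the brightest set in the Jeko-1 pair, 22 in the Raji pair and 18 between the lines. For the genes called between the lines, 13 of 13 further probe sets over 8 genes had the same sign. For PSMB2 they gave -2.15 and -1.62 beside -2.04, and for PSMC2 1.74 and 1.94 beside 1.27. The called genes without a further probe set are PSMB3, PSMB5, PSMB6, PSMB10, PSMC1, PSMC4, PSMC6, PSMD2, PSMD3, PSMD8 and PSME1. Each is read by 1 probe set, so its difference has no such check.

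Genes that work beside the proteasome were taken from a list of 42, of which 34 had a value and 33 passed the floor filter, and 0 of these reached 2-fold within either line. In the Jeko-1 pair their median ratio was 0.08 (19 above 0 and 14 below) and in the Raji pair -0.21 (10 above and 23 below). The 5 deubiquitinases and ligases that bind the proteasome were all below 0 in Raji/R, with a median of -0.40, and of -0.15 in Jeko-1/R. They were below 0 in Raji/R after quantile normalization, median centring and the lowess adjustment too, while 2 of 5 were above 0 with the mean over probe sets. ECPAS, an adaptor of the proteasome, had -0.61 and UCHL5, a deubiquitinase of the base, -0.59. The immunoproteasome partners PSMB8, PSMB9, TAP1 and TAP2 were all above 0 in Jeko-1/R (median 0.21) and had a median of 0.15 in Raji/R, which median centring turned to -0.26. NFE2L1 itself had ratios of 0.14 and -0.14 in the 2 pairs.

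Between the lines, 8 of these 33 genes were higher and 13 lower in the Jeko-1 lines, together 63.6%, beside the 53.4% of all genes. PSMB8, the immunoproteasome subunit that takes the place of PSMB5, read 3059 and 3242 in the Jeko-1 cells and 10604 and 11463 in the Raji cells, a difference of -1.81 (SE 0.24, adjusted p = 0.000828). TAP1, a transporter of antigen peptides, had a difference of -2.55 (SE 0.24, adjusted p = 0.000199). PSMB9, which takes the place of PSMB6, read 3271, 3812, 3436 and 3892 and did not differ past the threshold (-0.05, SE 0.24, adjusted p = 0.877). The core assembly chaperones PSMG1, PSMG3 and PSMG4 were lower in the Jeko-1 lines, with differences of -1.72, -1.96 and -2.13. The deubiquitinase UCHL5 and the ligase UBE3A were higher in the Jeko-1 lines, by 1.53 and 1.49.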

How the data were processed

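Arrays of total RNA from 4 cell cultures were analysed, 1 per group. The authors deposited log2 signals of 54613 probe sets; the submitters' processing notes name MAS5, without a version. MAS5 scales each array as a whole, which leaves signal-dependent differences between arrays in place. Trimmed mean signals were 493 to 497. Probe sets with a single symbol (41091) named genes, those with several (1801) or none (11721) were left out, and 41037 gene IDs matched RefSeq, with 0 symbols changed.

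The pooled median log2 value, 6.28, served as a floor. Within a line, resistant over parental ratios were described with 2-fold as the size of a change and no test. Across all arrays, limma 3.58.1 in R 4.3.3 took cell line and resistance as its terms, leaving 1 residual degree of freedom, and two-sided p-values were adjusted by Benjamini-Hochberg for 15575 genes. The cell line is the block, since each resistant line came from its parent. Members and lists were chosen with earlier results of these data known. Genes given on every array were the catalytic subunits, PSMB10, POMP and the extremes of each subunit group in each pair. Of the genes called between the lines, up to 10 of lowest p per direction were given too. Others are added by the same values. Alternatives were quantile normalization, median centring, a lowess adjustment (fraction 0.3), a floor at the 75th percentile, no floor, log2(signal + 50), the mean over probe sets, probe sets without shared-sequence suffixes, and each model term left out. The steps were tested on simulated data. Python 3.11.15 was used.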

Additional observations from a re-analysis of the deposited data

How the results depend on the processing

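Under the alternatives the Jeko-1 pair kept 0 members past 2-fold and a median below 0, and over both lines 0 members passed for resistance. In that pair the medians of the beta ring and of the other base subunits kept their sign in 8 of 8 alternatives, and those of the other groups turned only under another choice of probe set. Leaving the cell line out of the model (no replicate block) also gave 0 members, with 4 genes at an unadjusted p under 0.05 in place of 324. Median centring called 4 genes for resistance, 0 of them members. In the Raji pair, 2 members passed 2-fold with median centring (PSMC6 at -1.02 and PSMD5 at -1.16) and 1 without shared-sequence probe sets (POMP at -1.01). Over all genes of that pair the split of 1026 higher and 386 lower became 853 and 739 with quantile normalization, 369 and 1303 with median centring, 351 and 801 with the lowess adjustment, and 53 and 86 with the higher floor. Between the lines, the median difference of the members was -0.12 with quantile normalization, -0.17 with median centring, 0.12 with the lowess adjustment, -0.064 with the mean over probe sets and -0.13 without shared-sequence probe sets. The 5 members called higher in the Jeko-1 lines became 8 with quantile normalization or with resistance left out, 10 with the lowess adjustment or the mean over probe sets, 9 with the higher floor and 0 with no floor, where 0 members were called lower. Over all genes, 3629 of 15575 were called higher as deposited, 3373 of 15256 with quantile normalization and 3567 of 15575 with resistance left out. These counts were 4127 of 15575 with the lowess adjustment, 3390 of 15637 with the mean over probe sets and 3096 of 9248 with the higher floor. With no floor 0 of 19775 genes passed, 8187 had an unadjusted p under 0.05, and the adjusted p of the 19 members lay between 0.0729 and 0.179. Of the 19 calls, 16 were kept wherever measured in the other 8 alternatives. PSMA7 was lost with quantile normalization and the lowess adjustment, PSMB4 with those and median centring, and PSMD9 with median centring, the lowess adjustment and log2(signal + 50); PSMB4 reversed to 0.033 (adjusted p = 0.964) with the lowess adjustment. Members outside the 19 passed in some alternatives, among them PSMA4, PSMD10 and POMP with quantile normalization and with the lowess adjustment. The cause of these shifts was not tested. All measured members were above the floor on every array, and the effect of background on their values was not tested.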

Other observations

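Some genes that did not pass between the lines had probe sets of opposite sign. The brightest PSMA2 probe set gave a log2 difference, Jeko-1 lines minus Raji lines, of -0.63, and the dimmer one, with 1575, 1397, 659 and 517 on the 4 arrays, gave 1.35. PSMD11 gave -0.47 and 0.68, PSMD12 -0.09 and 0.91, and PSMA3 0.45 and -0.62. For PSMA1 the brightest set gave -0.30 and the others 0.25 and 0.27. A dim probe set of PSMA5 read 822 and 868 in the Jeko-1 cells and was below the floor in Raji and Raji/R, while the brightest set read 7276, 6877, 7547 and 8350. PSMA8, a subunit of the alpha type known from testis, read 739 and 1011 in the Jeko-1 cells and 143 and 109 in the Raji cells, a difference of 2.79 (SE 0.29, adjusted p = 0.000284 by limma).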
